A study of Mus musculus with 6 samples.

Results

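The late cornified envelope (Lce) genes described here, 10 in number, were followed across 6 one-colour bead arrays of mouse dorsal skin and skin tumours. Of these, 7 genes, Lce1a1, Lce1b, Lce1c, Lce1f, Lce1g, Lce1i and Lce1m, carry Lce1 symbols, and the other three, Lce3b, Lce3c and Lce3e, carry Lce3 symbols. They are 10 of the 19057 genes named on the array, each read by the probe annotated to it with the highest mean signal. All 10 were among the 11999 genes tested, which were detected on at least 1 array. Lce3e passed that filter only through the 4 arrays of DMBA-treated mice. The genes were chosen by measured values, the differences between wild-type tumours and wild-type acetone skin, so that comparison is described and not tested.

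Mice were of a mixed C57BL6/129Sv background and 8 weeks old at the start, and were either wild type (WT, Sting +/+) or deficient in STING (SKO, Sting -/-), the adaptor that relays the presence of DNA in the cytosol to interferon genes. DMBA, a carcinogenic polycyclic hydrocarbon, was painted on shaved back skin weekly for 18 to 20 weeks at 10 µg in 100 µl acetone, and control mice received 100 µl acetone alone. WT acetone skin had 1 array, WT DMBA tumour 2, SKO acetone skin 1 and SKO DMBA skin 2. The DMBA samples of WT mice were tumours and those of SKO mice were skin, and therefore the effect of genotype and that of the kind of tissue cannot be told apart where the DMBA groups are compared. No label ties the samples to separate animals. The p-values therefore reflect only how far these samples differ among themselves, and that spread may be technical.

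Late cornified envelope proteins are small proteins that keratinocytes make in the last steps before they become the dead cornified cells of the skin surface, where transglutaminases cross-link them into the protein shell under the plasma membrane. The genes lie next to each other in the epidermal differentiation complex, together with those for loricrin, filaggrin and the small proline-rich (Sprr) proteins. In human skin the LCE1 genes are part of normal epidermal differentiation, whereas LCE3 genes are low in intact epidermis and are induced by barrier damage and in psoriatic plaques.

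In the RefSeq annotation of GRCm38.p6 all 18 Lce genes on the array lie on chromosome 3. The Lce1 genes follow each other from Lce1a1 to Lce1l, then come Lce3a, Lce3b, Lce3c, Lce3e and Lce3f, and Lce1m, listed there also as Lce5a, lies beyond the Lce3 genes, apart from the other Lce1 genes. RefSeq promoter windows, from 250 bases before to 50 bases after the gene start, were matched for 9 of the 10 genes, all but Lce1f. The 120 bases before the start are shown for the 3 Lce3 genes, Lce1m, Lce1g and Lce1c. Over the arrays Lce1m and Lce1g had the widest ranges of the Lce1 genes, and the range of Lce1c was narrow beside theirs. The bases read from 5′ to 3′ on the strand of the gene, and capitals mark the letters ATAAAAG. Lce3b lies at chr3:92932859-92932978 on the plus strand, Lce3c at chr3:92944366-92944485 on the plus strand, Lce3e at chr3:92966941-92967060 on the plus strand, Lce1m at chr3:93019062-93019181 on the minus strand, Lce1c at chr3:92679127-92679246 on the plus strand and Lce1g at chr3:92752339-92752458 on the minus strand.
Lce3b: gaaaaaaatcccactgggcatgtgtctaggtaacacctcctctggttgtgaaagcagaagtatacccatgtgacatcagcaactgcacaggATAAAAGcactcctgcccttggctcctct
Lce3c: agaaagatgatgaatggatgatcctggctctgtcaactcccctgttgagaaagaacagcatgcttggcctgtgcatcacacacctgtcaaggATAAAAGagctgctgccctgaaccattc
Lce3e: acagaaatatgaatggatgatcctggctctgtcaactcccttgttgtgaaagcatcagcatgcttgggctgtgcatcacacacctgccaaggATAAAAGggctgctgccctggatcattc
Lce1m: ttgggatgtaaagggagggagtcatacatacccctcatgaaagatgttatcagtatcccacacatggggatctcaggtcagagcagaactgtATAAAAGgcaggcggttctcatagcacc
Lce1c: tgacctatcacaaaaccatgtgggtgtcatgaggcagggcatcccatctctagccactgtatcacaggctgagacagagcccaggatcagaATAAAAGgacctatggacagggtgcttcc
Lce1g: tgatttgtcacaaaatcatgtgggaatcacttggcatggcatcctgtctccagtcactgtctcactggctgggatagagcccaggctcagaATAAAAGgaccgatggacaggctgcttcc

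The motif ATAAAAG was searched for after these windows had been read, and it began at position -29 or -28 from the start in 7 of the 9 windows, in all 3 Lce3 genes and in Lce1c, Lce1g, Lce1i and Lce1m. Between 40 and 20 bases before the start it was present in 13 of the 17 Lce windows and in 0.825% of all 32851 RefSeq windows. Anywhere in the window, on either strand, it was found in 5.42% of all windows. It resembles the TATA box, at which transcription of many genes is set up, and in Lce1m it overlaps the canonical letters TATAAA. Counted on either strand and over the whole window, TATAAA stood in 1 of 6 Lce1 windows, 1 of 3 Lce3 windows and 13.6% of all windows. The Lce3 match, in Lce3e, was on the opposite strand, from -243 to -238. The AP-1 motif TGANTCA and the grainyhead motif AACCNGTT were in 0 of the 17 Lce windows on either strand, against 7.81% and 2.09% of all windows. These matches describe letters within 300 bases and say nothing of binding.

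The windows grouped the genes in part as their symbols do. Among the Lce1 genes other than Lce1m, identity over the window was 59.2% to 86.0% in 10 pairs, and among the 3 Lce3 genes it was 55.5% to 78.1%. Between Lce1 and Lce3 genes it was 44.9% to 51.1% in 18 pairs, and between Lce1m and the other Lce1 genes 48.5% to 50.2% in 5 pairs. The range for Lce1m thus lay inside the range between the subgroups. Lce transcripts are alike within a subgroup, and probe sequences were not used here, so a probe may also read a near-identical paralogue and the values of single genes are uncertain to that degree.

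Each array detected from 35.5% to 43.3% of its 45281 probes, the lowest share on tumour 1, and median intensity before normalization lay between 76.5 and 87.4. Levels below are normalized intensities on the log2 scale, and levels of different genes come from different probes and are not compared. The probe for Sting1, the targeted gene, read 6.31 in WT acetone skin, 6.79 in tumour 2, and 5.55 and 5.33 in SKO DMBA skin. It was not detected on tumour 1 or SKO acetone skin, and no source used here places it inside or outside the deletion, so it does not check the genotypes.

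The Lce3 genes stood near or at background in acetone skin of both genotypes, higher in SKO DMBA skin and higher still in WT tumours. Lce3c read 6.30 in WT acetone skin and 6.92 in SKO acetone skin, 8.66 and 10.26 in the SKO DMBA skins, and 14.60 and 13.83 in the tumours. Before normalization its intensity was 144 and 186 in acetone skin, 508 and 1286 in SKO DMBA skin and 27292 and 14788 in the tumours. Both tumours lay above every skin array, as in 26.1% of all tested genes. Both SKO DMBA skins also lay above both acetone skins, and this whole order was found in 6.59% of all tested genes.

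Lce3b had the same order, with 6.07 and 6.12 in WT and SKO acetone skin, 8.03 and 9.79 in SKO DMBA skin, and 14.47 and 13.68 in the tumours. Lce3e was not detected in either acetone skin, and read 5.96 and 7.66 in SKO DMBA skin and 13.08 and 12.34 in the tumours. On all 3 genes tumour 1 was above tumour 2, and SKO DMBA skin 2 above SKO DMBA skin 1. SKO acetone skin was above WT acetone skin, with 1 array each and no test, by 0.06 for Lce3b and 0.62 for Lce3c.

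**Figure D1:**
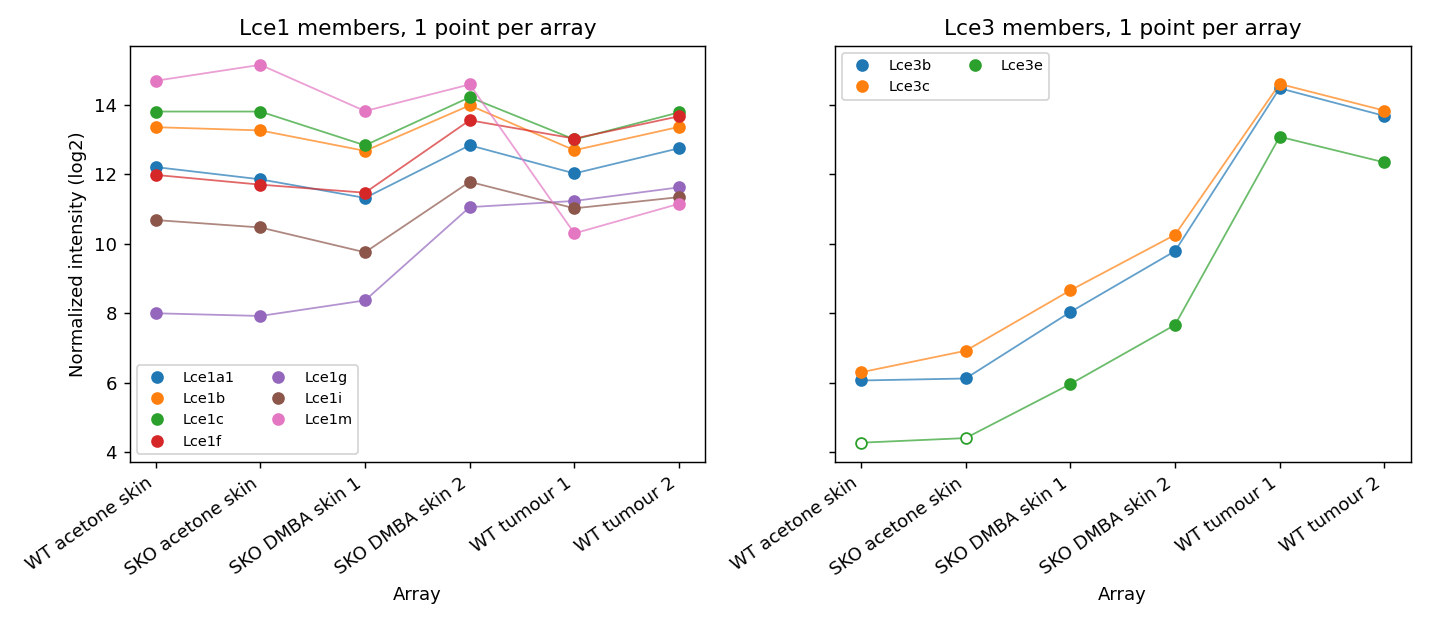
Normalized intensity (log2, vertical axis) of each gene on each of the 6 arrays, Lce1 genes left and Lce3 genes right, with 1 point per array and open points where the probe was not detected; lines only join the points of a gene, and arrays of a group have no order. The 3 Lce3 lines run together, over a range of 8.41 for Lce3b and 8.30 for Lce3c, while 5 of the 7 Lce1 lines stay within 2.20 and Lce1m alone lies lower in both tumours than on every skin array.

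Most Lce1 genes were detected on every array, and their tumour values lay among those of skin. Lce1c read 13.80 in both acetone skins, 12.83 and 14.21 in SKO DMBA skin, and 13.00 and 13.78 in the tumours. Lce1b read 13.35 and 13.26 in WT and SKO acetone skin, 12.67 and 13.98 in SKO DMBA skin, and 12.69 and 13.36 in the tumours. In both genes the tumours and the acetone skins lay inside the range set by the pair of SKO DMBA skins.

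Lce1a1 read 12.21 and 11.85 in WT and SKO acetone skin, 11.32 and 12.83 in SKO DMBA skin, and 12.02 and 12.75 in the tumours. Lce1i read 10.68 and 10.47 in acetone skin, 9.75 and 11.78 in SKO DMBA skin, and 11.02 and 11.34 in the tumours. Neither gene separated the groups, since SKO DMBA skin held both the lowest and the highest array. Lce1f read 11.98 and 11.70 in acetone skin, 11.47 and 13.55 in SKO DMBA skin, and 13.02 and 13.67 in the tumours, so that SKO DMBA skin 2 lay between the tumours and SKO DMBA skin 1 just below the acetone skins.

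Lce1g and Lce1m departed from the other Lce1 genes, in opposite directions. Lce1g read 8.00 and 7.92 in WT and SKO acetone skin, 8.37 and 11.05 in SKO DMBA skin, and 11.23 and 11.62 in the tumours. Its arrays followed the group order of the Lce3 genes, with tumours above SKO DMBA skin and SKO DMBA skin above acetone skin, but SKO DMBA skin 2, at 11.05, came close to tumour 1, at 11.23. Lce1m read 14.69 and 15.15 in acetone skin, 13.82 and 14.58 in SKO DMBA skin, and 10.30 and 11.15 in the tumours. Its intensity before normalization was 24613 and 39118 in acetone skin, 13984 and 22892 in SKO DMBA skin and 1097 and 2204 in the tumours. The tumours lay below every skin array for Lce1m, as in 27.2% of all tested genes. It was the sole Lce gene on the array of which that held.

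The range over the 6 arrays sets these levels against the array as a whole. The median range of the 11999 tested genes was 1.05. Lce1b, the steadiest of the 10, had a range of 1.31, and Lce1c 1.38, Lce1a1 1.51, Lce1i 2.03, Lce1f 2.20, Lce1g 3.70 and Lce1m 4.85. The range was 8.30 for Lce3c and 8.41 for Lce3b, and for Lce3e, not detected in acetone skin, it has no exact value.

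WT tumours differed from WT acetone skin mainly in the Lce3 genes. Lce3b was higher by 8.01 (SE 0.83), or 258-fold, and Lce3c by 7.91 (SE 0.77), or 241-fold. Lce3e, which was not detected in WT acetone skin, was at least 195-fold higher. That bound sets the mean of the brighter group against the lowest signal of a detected probe on the dimmer array, or the probe's own signal where that is higher. The sizes of these differences follow from how the genes were chosen.

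Among the Lce1 genes Lce1g was higher by 3.43 (SE 1.14) and Lce1m lower, with a difference of -3.96 (SE 0.53), or 15.6-fold. Lce1f differed by 1.37 (SE 0.93), Lce1i by 0.50 (SE 0.88), Lce1a1 by 0.18 (SE 0.73), Lce1b by -0.33 (SE 0.65) and Lce1c by -0.41 (SE 0.70). The median difference was 8.01 over the 3 Lce3 genes and 0.18 over the 7 Lce1 genes, beside -0.011 over all tested genes. With Lce3e at its bound the Lce3 median was 7.91. Without tumour 2 the Lce1 median was -0.18.

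In SKO mice, whose DMBA samples were skin, Lce3b and Lce3c had the largest differences among the members detected in both groups. Lce3b was higher in SKO skin with DMBA than with acetone by 2.79 (SE 0.83, n = 2 and 1, limma adjusted p = 0.580) and Lce3c by 2.54 (SE 0.77, limma adjusted p = 0.580). Lce3e, not detected in SKO acetone skin, was at least 2.96-fold higher, and its test is not given, since it passed the detection filter through the DMBA arrays. Limma called none of the members, and 0% of all 11999 genes, at an adjusted p under 0.05. At an unadjusted limma p under 0.05 Lce3b and Lce3c and 0 of 7 Lce1 genes were higher, beside 3.98% of all genes, and 0 were lower, beside 3.78%. Both SKO DMBA skins lay above SKO acetone skin for all 3 Lce3 genes and for Lce1g, an order found in 38.6% of all genes.

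The Lce1 genes showed no common difference in SKO skin. Lce1g differed by 1.79 (SE 1.14, limma adjusted p = 0.775), Lce1f by 0.81 (SE 0.93, adjusted p = 0.888) and Lce1m by -0.95 (SE 0.53, adjusted p = 0.754). The other four lay between -0.28 for Lce1c and 0.30 for Lce1i, with limma adjusted p from 0.958 to 0.990. For Lce1m both SKO DMBA skins lay below SKO acetone skin, as in 38.4% of all genes. The median was 2.54 over Lce3, also with Lce3e at its bound, and 0.22 over Lce1, beside 5.89e-05 over all genes. Without SKO DMBA skin 2 the Lce1 median was -0.59 and the Lce3 median 1.74, and without SKO DMBA skin 1 they were 0.98 and 3.34. The difference of WT tumours from WT acetone skin, minus that of SKO DMBA skin from SKO acetone skin, was 5.22 for Lce3b. It was 5.38 for Lce3c and -3.02 for Lce1m. These values set tumours against skin in WT mice only, so genotype and kind of tissue cannot be told apart in them. They use the comparison that chose the genes and were not tested.

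**Figure D2:**
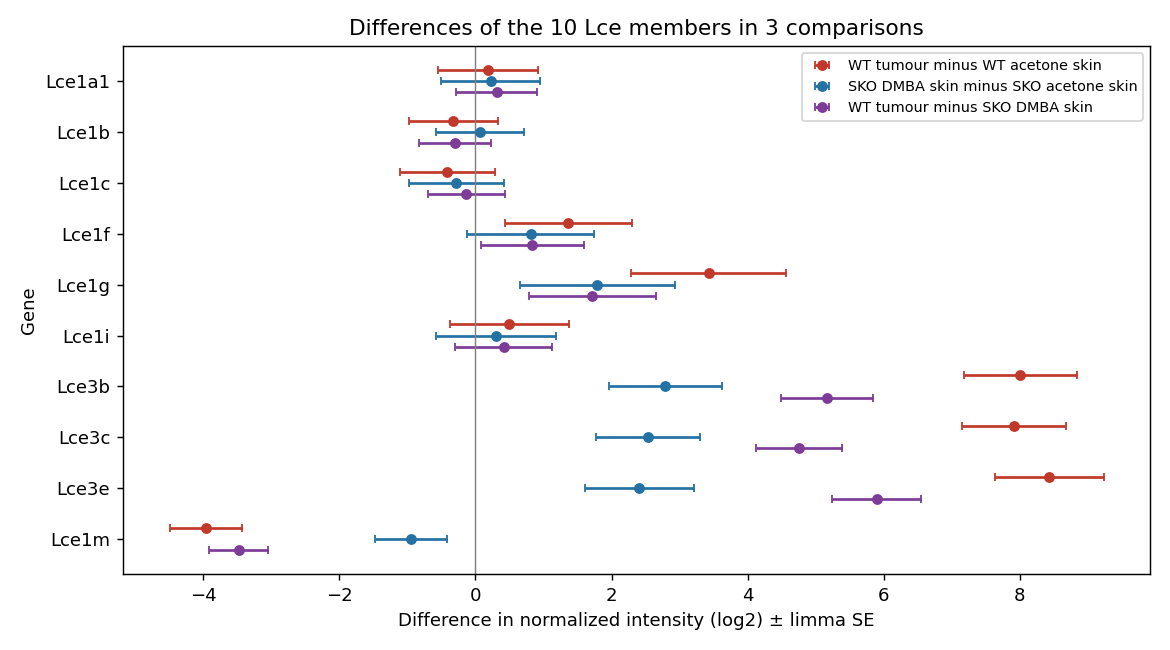
Difference in normalized intensity (log2, horizontal axis) of each of the 10 genes for WT tumours against WT acetone skin (red), SKO skin with DMBA against SKO skin with acetone (blue) and WT tumours against SKO DMBA skin (purple), as points with limma's standard error; for Lce3e the acetone values are of a probe not detected there. Lce3b and Lce3c lie at or right of 2.54 in all 3 comparisons, Lce1m lies left of 0 in all 3, and Lce1a1, Lce1b, Lce1c and Lce1i lie within 0.50 of 0.

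The DMBA groups were compared directly, with tumours on one side and STING-deficient skin on the other. The tumours also served to choose the genes, so the p-values, counts and calls of this comparison are not independent of that choice. Lce3e was higher in the tumours by 5.90 (SE 0.65, n = 2 and 2), or 59.6-fold, with a limma adjusted p of 0.0710. Lce3b was higher by 5.16 (SE 0.68), or 35.8-fold, and Lce3c by 4.76 (SE 0.63), or 27.0-fold, each with a limma adjusted p of 0.0723. Lce1m was 11.1-fold lower, with a difference of -3.48 (SE 0.43, limma adjusted p = 0.0723).

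None of the 10 genes passed the adjusted threshold of 0.05 in this comparison, nor did any of the 11999 tested (0%). At an unadjusted limma p under 0.05 3 of 3 Lce3 genes were higher, beside 12.4% of all genes, and 1 of 7 Lce1 genes, Lce1m, was lower, beside 17.1%. The 3 Lce3 genes and Lce1g were higher in both tumours than on all 4 skin arrays, an order found in 26.1% of all genes, and Lce1m was lower in both, as were 27.2%. Both orders include WT acetone skin, by which the genes were chosen. For the same 4 genes both tumours lay above both SKO DMBA skins and these above both acetone skins, as in 6.59% of all genes. That order includes WT acetone skin as well. With the tests run on the 8590 genes detected on all 6 arrays, Lce3b, Lce3c and Lce1m were called, with 1.57% of all genes, and Lce3e was filtered out. All 3 Lce3 genes and Lce1m were called without tumour 1, with 7.64% of all genes, and without tumour 2, with 30.9%, where the lone tumour was assumed to vary like the other groups.

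No other Lce1 gene had an unadjusted limma p under 0.05 between tumours and SKO DMBA skin, although both tumours lay above both SKO DMBA skins for Lce1g. The difference was 1.71 (SE 0.93, limma adjusted p = 0.276) for Lce1g, 0.84 (SE 0.76, adjusted p = 0.481) for Lce1f, 0.41 (SE 0.72, adjusted p = 0.716) for Lce1i and 0.31 (SE 0.60, adjusted p = 0.744) for Lce1a1. It was -0.30 (SE 0.53, limma adjusted p = 0.723) for Lce1b and -0.13 (SE 0.57, adjusted p = 0.888) for Lce1c. The medians were 5.16 over Lce3 and 0.31 over Lce1, beside -0.023 over all genes. The Lce1 median turned to -0.60 without SKO DMBA skin 1, -0.05 without tumour 2 and 1.07 without SKO DMBA skin 2, while the Lce3 median stayed between 4.29 and 6.04 with any array of the groups of 2 left out. The 3 comparisons share arrays and are not independent of each other.

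The other Lce genes on the array, 8 in number, followed their neighbours in the cluster with exceptions. Lce3f, next to Lce3e, read 6.04 in WT acetone skin, was not detected in SKO acetone skin, and read 7.67 and 9.18 in SKO DMBA skin and 13.65 and 13.36 in the tumours. WT tumour minus SKO DMBA skin was 5.08 for Lce3f (SE 0.56, limma adjusted p = 0.0710). Lce3a, the first Lce3 gene of the cluster, read 10.56 and 9.05 in the tumours, 5.56 in SKO DMBA skin 2 and 5.41 in WT acetone skin, and was not detected on the other SKO arrays. Its differences were 4.39 in WT and 4.65 between the DMBA groups (SE 0.61, limma adjusted p = 0.0723). Unlike the other Lce3 genes it was thus near or below detection in SKO DMBA skin as well.

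Lce1l, the last Lce1 gene before the Lce3 genes, read 10.99 and 11.41 in WT and SKO acetone skin, 9.49 and 11.77 in SKO DMBA skin and 9.74 and 9.58 in the tumours, a difference of -1.34 (SE 0.97) in WT mice. Lce1a2, Lce1d and Lce1e had differences of -0.33, 0.85 and 1.22 there, and Lce1h was detected on 1 array only. Lce6a, at the other end of the cluster, read 10.62 in WT acetone skin, 9.67 and 10.25 in the tumours, 9.09 in SKO acetone skin and 10.09 and 11.61 in SKO DMBA skin. Along the chromosome the Lce3 block with high differences thus lay between Lce1l and Lce1m, whose differences in the tumours were negative.

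**Figure D3:**
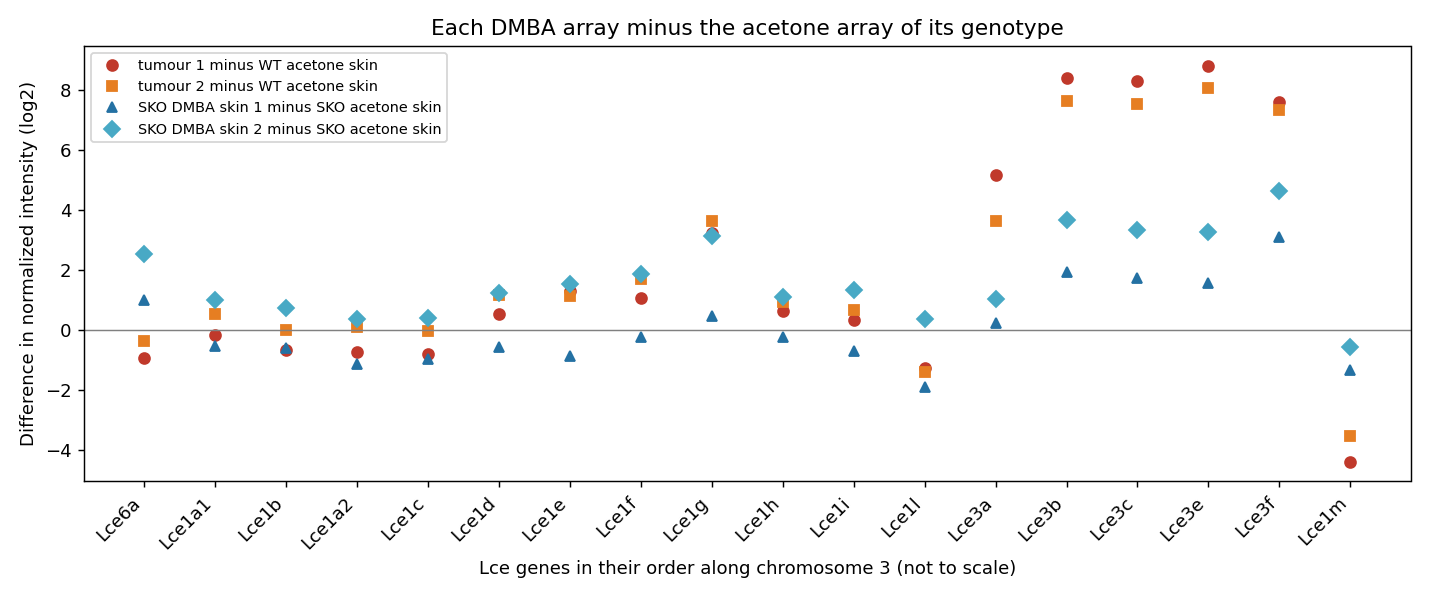
Difference in normalized intensity (log2, vertical axis) of each DMBA array minus the acetone array of its genotype, 1 point per array, for the 18 Lce genes in their order on chromosome 3 (horizontal axis, not to scale). Both tumours lie at or above 7.32 at Lce3b, Lce3c, Lce3e and Lce3f and at or below -3.54 at Lce1m, and the SKO DMBA skins lie between 1.55 and 4.61 at those 4 Lce3 genes; at Lce1h, Lce3a, Lce3e and Lce3f some probes were not detected.

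Lce3b was annotated to 3 probes. The probe used was detected on 6 arrays and the others on 4 and 3. WT tumour minus WT acetone skin was 8.01 with the probe used and 8.46 and 8.45 with the others. SKO DMBA skin minus SKO acetone skin was 2.79, 2.72 and 1.98, and tumours minus SKO DMBA skin 5.16, 6.22 and 6.67 with these probes.

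The members of each subgroup differed in the same direction between the arrays of a group. From tumour 1 to tumour 2 all 7 Lce1 genes were higher, by 0.32 to 0.85, as were 49.6% of all genes, whereas all 3 Lce3 genes were lower, with differences from -0.79 to -0.74, as were 50.4%. Of the other Lce1 genes, Lce1e (-0.17) and Lce1l (-0.16) were lower as well. From SKO DMBA skin 1 to SKO DMBA skin 2 all 7 Lce1 genes were higher by 0.77 to 2.68 and all 3 Lce3 genes by 1.60 to 1.75, as were 46.5% of all genes. Arrays of a group have no order, and these differences describe the spread that the tests were run against.

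Set against its own acetone skin, SKO DMBA skin 1 had a median of -0.59 over Lce1 and 1.74 over Lce3, and SKO DMBA skin 2 had 0.98 and 3.34. The gap between the subgroups was 2.33 and 2.36 on these arrays. Tumour 1 had medians of -0.18 over Lce1 and 8.41 over Lce3, a gap of 8.59, and tumour 2 had 0.54 and 7.61, a gap of 7.07. Lce3e, not detected in acetone skin, enters these medians at its measured value. The gap thus differed less between the SKO arrays than either median did, but between the tumours it differed more than either median.

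**Figure D4:**
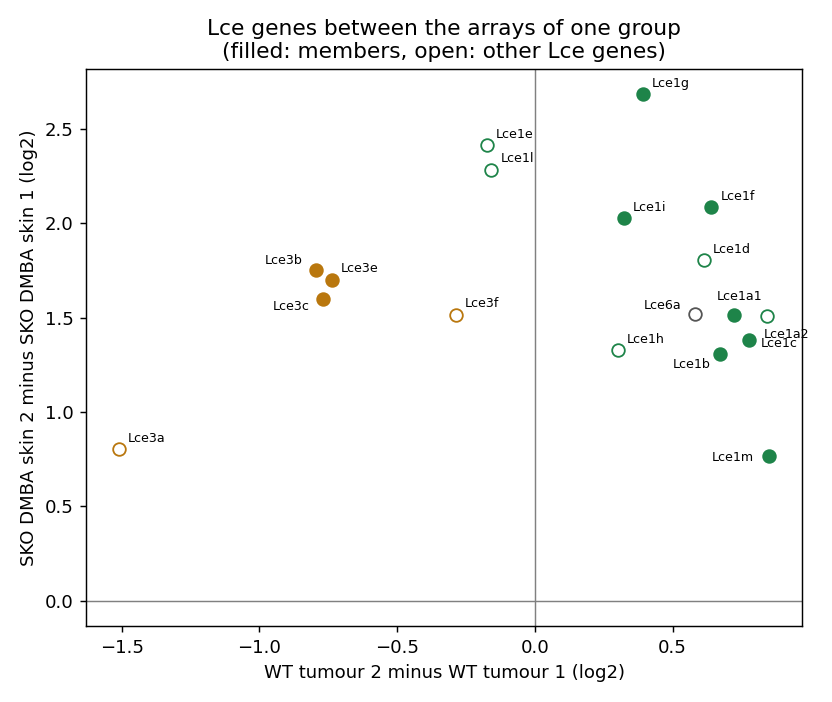
Difference between the arrays of a group for each Lce gene (log2), WT tumour 2 minus WT tumour 1 on the horizontal axis and SKO DMBA skin 2 minus SKO DMBA skin 1 on the vertical axis, 1 point per gene, filled for the 10 genes described and open for the other 8, with Lce1 in green, Lce3 in brown and Lce6a in grey. All points lie above 0 on the vertical axis, the 3 filled Lce3 points lie between -0.79 and -0.74 on the horizontal axis and the 7 filled Lce1 points between 0.32 and 0.85.

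The summed intensity of wound keratinocyte markers followed the order of the Lce3 groups, but single markers did not all follow it. Their median log2 level was 10.92 in SKO DMBA skin 1 and 10.94 in WT acetone skin. Markers of other cell types differed between the samples in other ways. Fewer cells of a type and less RNA per cell cannot be told apart in such bulk samples. The summed normalized intensity of 9 wound keratinocyte markers, such as Krt6a, Krt6b and Krt16, was 65955 in WT acetone skin and 34955 in SKO acetone skin, 71783 and 111144 in SKO DMBA skin and 258524 and 255740 in the tumours, with Stfa3 not detected in the acetone skins and SKO DMBA skin 1. All 9 had positive differences in WT tumours (median 3.96) and in SKO DMBA skin (median 3.34), each against acetone skin of its genotype. Against WT acetone skin, the median difference was -2.34 in SKO acetone skin, 0.11 and 0.46 in SKO DMBA skin, and 3.95 and 3.90 in the tumours. The median of 3.34 thus rests on the lone SKO acetone array, which was low beside WT acetone skin. Between the SKO DMBA skins, 8 of the 9 were higher in SKO DMBA skin 2 (median 1.38), the array with the higher Lce3 values. The part of these markers in the Lce3 differences was not tested.

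Suprabasal keratinocyte markers, 10 in number and with Krt1 and Krt10 among them, had smaller median differences, but single markers differed widely in the tumours. In WT tumours against WT acetone skin they ran from -5.72 for Krt77 (SE 1.11) to 2.63 for Dsc1 (SE 0.43). Their summed intensity was 130519 and 126751 in WT and SKO acetone skin, 128800 and 150165 in SKO DMBA skin and 177729 and 186219 in the tumours, and the median difference was 0.13 in WT and 0.15 in SKO mice. Krt2, Krt77 and Dsg1a were not detected in tumour 1, Krt2 was not in tumour 2 and Dsg1a was not in SKO DMBA skin 1. The sum over 8 basal markers, such as Krt5 and Krt14, ran from 71701 in tumour 1 to 92853 in WT acetone skin. Single basal markers ran from -4.34 for Krt15 (SE 1.38) to 1.50 for Itga6 (SE 0.40) in WT tumours against WT acetone skin.

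The samples also differed in markers of hair, muscle and other cells. Hair follicle markers, 19 on the array, summed to 93308 in WT acetone skin, 4500 in SKO acetone skin, 101904 and 133496 in SKO DMBA skin, and 2272 and 29620 in the tumours, and tumour 1 detected 5 of them. Skeletal muscle markers, 14 on the array, summed to 261414 and 331556 in WT and SKO acetone skin, 254925 and 183167 in SKO DMBA skin, and 522 and 50093 in the tumours, and tumour 1 detected 2 of them. Adipocyte markers, 9 on the array, summed to 53593 and 63854 in acetone skin, 20937 and 15275 in SKO DMBA skin, and 1450 and 4831 in the tumours. Neutrophil markers, 9 on the array, summed to 2951 and 884 in WT and SKO acetone skin. The sums were 3046 and 6385 in SKO DMBA skin, and 54817 and 65803 in the tumours. Tumour 1 detected 5 of these markers and tumour 2 detected 6, and Ngp, Camp and Mmp8 were detected in neither. In WT tumours against acetone skin the differences ran from -1.01 for Camp to 5.06 for S100a9, and bright probes weigh most in a sum. Fibroblast markers summed to 55229 and 50847 in acetone skin, 36792 and 43905 in SKO DMBA skin, and 4586 and 19526 in the tumours. Sums were also lower in both tumours than in WT acetone skin for sebocyte (39645 against 6471 and 10393), macrophage (10637 against 2253 and 8673), T cell (5059 against 1031 and 3280) and melanocyte markers (12461 against 459 and 5410), and endothelial sums lay between 1715 and 4685 on all arrays. Macrophage sums were 13364 in SKO acetone skin and 28323 and 18675 in SKO DMBA skin. T cell sums were 5198 in SKO acetone skin and 7182 and 6379 in SKO DMBA skin. Sebocyte sums were 47998 in SKO acetone skin and 29878 and 27895 in SKO DMBA skin. Melanocyte sums were 2900 in SKO acetone skin and 4641 and 8469 in SKO DMBA skin. The part of these tissues in the Lce values was not tested.

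The tested genes outside the Lce family whose array profile lay nearest to the mean Lce3 profile were Sprr2e, Sprr2f and Sprr2g, which encode small proline-rich envelope precursors, Serpinb3a, a protease inhibitor, and Klk13, a kallikrein-related protease. Likeness was the root mean square distance of array-centred log2 values over the 6 arrays, which share groups and normalization. It was 0.330 for Sprr2e, 0.415 for Sprr2f, 0.481 for Sprr2g, 0.512 for Serpinb3a and 0.700 for Klk13, beside 0.0823 to 0.260 for the 3 Lce3 genes themselves. Sprr2e read 7.22 and 8.80 in SKO DMBA skin and 12.73 and 12.44 in the tumours.

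Nearest to the mean Lce1 profile were Pnisr (0.208), a nuclear serine-arginine rich protein, E4f1 (0.232), a zinc finger protein, Lamb1 (0.297), a laminin chain, Ccl25 (0.302), a chemokine, and Ezh2 (0.302), the histone methyltransferase of the Polycomb system. The Lce1 genes lay at 0.190 for Lce1a1, 0.206 for Lce1b, 0.266 for Lce1i and 0.275 for Lce1c, but at 0.581 for Lce1f, 1.39 for Lce1g and 1.89 for Lce1m. Lce1f, Lce1g and Lce1m were thus farther from it than each of those 5 genes. The genes of each subgroup make up its mean profile, which brings their own distances down.

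Other proteins of the envelope were followed as lists chosen with these results known. Of 35 envelope and cornified layer genes outside the Lce family 28 were tested, and limma called none with adjustment in SKO DMBA skin or between the DMBA groups. The median difference was 1.37 in WT tumours against acetone skin, 1.09 in SKO DMBA skin and 1.13 in tumours against SKO DMBA skin. At an unadjusted limma p under 0.05, 12 were higher and 0 lower in SKO DMBA skin, beside 3.98% and 3.78% of all genes, and 15 higher and 4 lower in tumours against SKO DMBA skin, beside 12.4% and 17.1%. Sprr2b, Sprr2j-ps and Sprr3 passed the detection filter only through the tumours. Sprr2e, Sprr2i and Sprr2k passed it only through arrays of DMBA-treated mice. The counts are therefore no test of the list against the shares of all genes. Sprr2k was at least 501-fold higher in WT tumours and Flg2, of the filaggrin family, had a difference of -3.55 (SE 0.76). In SKO DMBA skin the highest was Sprr1b, at least 61.3-fold (limma adjusted p = 0.368), and the lowest Anxa1 at -0.27 (SE 0.65, limma adjusted p = 0.956). Sprr1b read 10.45 in WT acetone skin, was not detected in SKO acetone skin, and read 10.19 and 12.19 in SKO DMBA skin. Its fold thus rests on the lone SKO acetone array. Between the DMBA groups the highest was Sprr2k at 9.06 (SE 0.68, limma adjusted p = 0.0710), detected on 1 of the 2 SKO DMBA skins. The lowest was Sprr4 at -4.16 (SE 0.86, limma adjusted p = 0.0956).

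Of 29 enzymes and inhibitors that act on the envelope, its lipids or its proteolysis, 26 were tested and none passed with adjustment. Klk14 passed the detection filter only through the tumours, and the counts below are no test of this list. The median was 1.48 in WT tumours, 0.37 in SKO DMBA skin and 1.24 in tumours against SKO DMBA skin. In SKO DMBA skin 2 were higher and 0 lower at an unadjusted limma p under 0.05, beside the same 3.98% and 3.78% of all genes, and in tumours against SKO DMBA skin 15 and 1, beside 12.4% and 17.1%. Tgm3, a transglutaminase that cross-links envelope proteins, had the highest differences in the comparisons with tumours, at 4.52 (SE 1.01) against WT acetone skin and 4.95 (SE 0.83, limma adjusted p = 0.0807) against SKO DMBA skin, where it was detected on 1 of 2 arrays. The lowest were the fatty acid elongase Elovl4 at -0.42 in the former and the lipid enzyme Pnpla1 at -1.02 in the latter (SE 0.24, limma adjusted p = 0.100). In SKO DMBA skin Casp14, a protease of filaggrin breakdown, was at 2.23 (SE 0.65, limma adjusted p = 0.580) and the protease inhibitor Spink5 at -0.70 (SE 0.41, limma adjusted p = 0.765).

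Of 33 regulators of terminal differentiation 28 were tested and none passed with adjustment. Here Prdm1 passed the detection filter only through the tumours, and the counts below are no test of the list. The median was -0.045 in WT tumours, 0.045 in SKO DMBA skin and 0.18 in tumours against SKO DMBA skin. In SKO DMBA skin 3 were higher and 0 lower at an unadjusted limma p under 0.05, and in tumours against SKO DMBA skin 8 and 3, beside those same shares of all genes. Elf3, an epithelial ETS factor, was at least 18.2-fold higher in WT tumours and higher by 3.22 (SE 0.26, limma adjusted p = 0.0710) in tumours against SKO DMBA skin, while the AP-1 subunit Fosb (-3.20) and the chromatin organizer Satb1 (-2.06, SE 0.77, limma adjusted p = 0.170) were the lowest. In SKO DMBA skin the homeobox factor Dlx3, which is also a hair marker, was at 2.17 (SE 0.34, limma adjusted p = 0.404) and Klf5 at -0.69 (SE 0.35, limma adjusted p = 0.733). Dlx3 read 10.72 in WT acetone skin, 8.65 in SKO acetone skin, and 10.56 and 11.08 in SKO DMBA skin.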

How the data were processed

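Total RNA of 6 samples was labelled with the Ambion MessageAmp kit and hybridised to one-colour Illumina arrays, per the labels' protocols. For each of 45281 probes and each array, the table deposited before normalization gives a linear intensity and a detection p-value, per the file headers. No source used here names the scanner. These deposited p-values rise with the signal (Spearman correlation at least 0.975), so 1 minus the value was used. The authors' deposited matrix holds log2 values. Set against the intensities, these were uncorrected signals after quantile normalization, on the log2 scale, with each probe's median subtracted, to a mean absolute deviation of no more than 0.00125. Scale, centring and direction were found in this way, and the median of a column was -0.00263 (WT acetone skin), 0.0122 (tumour 1), 6.82e-05 (tumour 2), -0.000698 (SKO acetone skin), -0.00172 (SKO DMBA skin 1) or -0.00292 (SKO DMBA skin 2). The matrix served as an alternative.

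Signals were processed with neqc of limma 3.58.1 (R 4.3.3), which corrects background from the detection p-values, adds an offset of 16, quantile-normalizes and takes log2. The platform annotation gave 34885 probes 1 gene, 18 several and 10378 none, and probes with several were left unnamed. Current symbols came through gene identifiers with RefSeq (GRCm38.p6), which held 34807 of those with 1 gene. A gene was read by its probe with the highest mean signal, and the 11999 of 19057 genes detected (p under 0.01) on 1 or more arrays were tested. lmFit and eBayes estimated 4 group means from the 6 arrays (2 residual and 2.43 prior degrees of freedom), with the lone acetone arrays assumed to vary like the groups of 2, and p-values were Benjamini-Hochberg adjusted over all tested genes. SE stands for the moderated standard error. The number of arrays limits the precision, and the procedure was tested on simulated data.

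Named genes were the 10 members, every other Lce gene on the array, the highest and lowest difference of each pathway list, and the 5 genes nearest to each subgroup's mean profile. Members, lists and tests were chosen with earlier results of these data known. Alternatives were another background correction, the authors' matrix, an offset of 50, other normalizations, other detection filters, the mean of all probes, and leaving out each array of the groups of 2. Replicates were numbered by accession order, which pairs no samples. Promoter windows come from RefSeq (GRCm38.p6), and proteins were not used here.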

Additional observations from a re-analysis of the deposited data

Results flagged for a closer look

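Lce6a, the Lce gene at the Lce1a1 end of the cluster, differed from acetone skin in opposite directions in WT tumours and in SKO DMBA skin. Both tumours lay below WT acetone skin, with differences of -0.95 and -0.37, and both SKO DMBA skins lay above SKO acetone skin, by 1.01 and 2.53. The response in WT minus that in SKO was -2.42 on the log2 scale. Each response rests on 1 acetone array, and the difference between them was not tested.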

How the results depend on the processing

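Under every alternative run, the 3 Lce3 genes kept positive differences in all comparisons, except that Lce3e has no value where genes had to be detected on all 6 arrays. The median Lce3 minus the median Lce1 difference in WT mice, 7.83, was 6.96 without background correction and 6.96 in the authors' matrix, which is built the same way. In WT tumour minus SKO DMBA skin, 0 members were called, and 3 were (Lce1m, Lce3b and Lce3c) among genes detected on all 6 arrays. With any array of the groups of 2 left out, 0 to 4 members were called. Raising undetected signals to the lowest detected signal, an alternative chosen after seeing the data, gave 4 called members with 3.51% of all genes; the cause was not tested. In SKO mice 0 members were called under every alternative, where limma counted Lce3b and Lce3c at an unadjusted p under 0.05. Of the 54 single differences of Lce genes, 8 changed sign without SKO DMBA skin 1 and 11 without SKO DMBA skin 2 by more than their SE, none of them called. The median of all genes in WT mice moved to -0.39 without normalization between arrays and to -0.27 with equal medians, and to -0.33 and -0.24 between the DMBA groups. No paired analysis was possible because the labels give the groups no shared replicate numbers. Probes near background, among them Lce3e in acetone skin, give bounds only.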
